A study of Mus musculus with 20 samples.

Results

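The 10 integrin subunit genes described here are Itgb1, Itgb5, Itgb8, Itgav, Itga1, Itga3, Itga6, Itga7, Itga8 and Itga9. They were chosen by name, as listed genes that occur both among the Ensembl 3′UTRs counted in the RIP-seq and among the RefSeq transcripts counted in the mRNA-seq. They are 10 of the 19888 named genes with a 3′UTR in the RIP-seq and of the 23781 genes in the mRNA-seq. The other 16 integrin subunit genes of the mouse are used here for comparison.

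The RIP-seq measured polyadenylated RNA that was precipitated with an anti-GFP antibody from fresh hippocampi of adult male C57BL/6 mice. Mice received AAV5 vectors in which a synapsin promoter, active in neurons, drives a fusion of GFP and AGO2, the argonaute protein that holds miRNAs on their target mRNAs. The GFP-AGO2 vectors also carried a sponge, a run of 8 imperfect miRNA binding sites, for miR-292 (miR292sp, 2 libraries, the control because miR-292 is not expressed in neural tissue), for miR-124 (miR124sp, 2 libraries) or for miR-125 (miR125sp, 2 libraries). Sham-injected mice without GFP-AGO2 gave 2 further libraries, which hold the background of the precipitation. For every library lysate from 2 hippocampi was pooled, and tissue was taken 8 weeks after injection in the experiment for which a time is given. The mRNA-seq measured frozen hippocampus of 12 single mice of the same strain, as 3 mice with AAV5-GFP.miR124sp against 3 with AAV5-GFP, and 3 mice with AAV5-GFP.miR125sp against 3 others with AAV5-GFP. No vector in the mRNA-seq carried AGO2, and GFP and sponges were again under the synapsin promoter. In whole tissue, fewer cells of a type and less RNA per cell cannot be told apart.

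Total counts were 2417942 to 5072501 per RIP library, with the miR292sp libraries the deepest, and 6950522 to 27833176 per mouse in the mRNA-seq. Summed markers of neurons stood at 6739 to 8133 CPM (counts scaled to library size) in the RIP libraries and 6007 to 7660 CPM in the mRNA-seq. The labels call the material hippocampal neurons, yet the mRNA-seq also held 2381 to 3756 CPM of astrocyte and 658 to 905 CPM of microglia markers, as whole hippocampus does. In the RIP libraries the 8 astrocyte markers summed to 62611 and 63038 CPM in sham, 14962 and 15692 CPM in miR292sp, 34683 and 37132 CPM in miR125sp, and 43569 and 44035 CPM in miR124sp. Both neuronal markers at 0 in the RIP libraries, Map2 and Syt1, had enough counts to be tested in the mRNA-seq. Markers listed at 0 in every group of the mRNA-seq included Itgam, Tek and Pdgfrb. Choroid plexus markers varied most among mice of 1 group, from 122 to 4160 CPM in GFP mice of the miR-124 experiment.

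Integrins are pairs of an α and a β subunit that span the plasma membrane and couple the extracellular matrix to the actin cytoskeleton through adaptors such as talin and kindlin. The subunit β1 joins many α subunits, among them α1, a collagen receptor, α3, α6 and α7, laminin receptors, and α8 and α9, which bind matrix proteins such as tenascin-C, whereas αv joins β1, β5 or β8 and binds vitronectin or latent TGF-β. In the nervous system integrins are known for roles in neuronal migration, dendrite and synapse maintenance and the attachment of glia and vessels to basement membranes. A miRNA recognises its targets mainly through bases 2 to 8 of its own sequence, the seed, which pair with a matching stretch in the 3′UTR.

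Of the 10 members, 6 had a 3′UTR with at least 10 counts in each of the 8 RIP libraries: Itgb1, Itgb8, Itgav, Itga6, Itga8 and Itga9. These 6 were tested among 8203 3′UTRs. The reference 3′UTRs of these 6 members were searched on the transcript strand for the complements of 5 miRNA seeds. The letters were GTGCCTT for miR-124-3p, CTCAGGG for miR-125b-5p, CTACCTC for let-7a-5p, ATAAGCT for miR-21a-5p and GGCACTT for miR-292a-3p. Of 7445 tested 3′UTRs with a reference sequence of the counted length, 16.8% held the miR-124 letters, 16.5% those of miR-125b, 11.5% those of let-7a, 8.68% those of miR-21a and 10.6% those of miR-292a. The miRNA whose family the miR-125 sponge is built for, as given in RefSeq (GRCm38.p6), is shown with its seed in capitals.
mmu-miR-125b-5p: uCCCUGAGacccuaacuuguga

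The sites for the sponged miRNAs are shown because they separate the members: Itgb1 held miR-124 matches only, Itga9 held miR-125b matches only, and Itga8 held 1 of each. Sequences are from NCBIM37 (mm9), 5′ to 3′ on the transcript strand, with the seed match in capitals, and all lie in annotated 3′UTR. The plus strand of chromosome 8 carries both Itgb1 sites, at chr8:131256213-131256235 and chr8:131257020-131257042, that of chromosome 9 the Itga9 sites, at chr9:118806740-118806762, chr9:118808153-118808175 and chr9:118809078-118809100. The minus strand of chromosome 2 carries the Itga8 sites, at chr2:12029120-12029142 for miR-124 and chr2:12030292-12030314 for miR-125b.
Itgb1, miR-124, first match: gtcacagtGTGCCTTtttaaccc
Itgb1, miR-124, second match: tgttttaaGTGCCTTttcatttt
Itga8, miR-124: tttatgtgGTGCCTTaacctgga
Itga8, miR-125b: tgcgaaggCTCAGGGagaaaagt
Itga9, miR-125b, first match: ggtcaaccCTCAGGGgaaaactg
Itga9, miR-125b, second match: cctcgtgcCTCAGGGtggtaagc
Itga9, miR-125b, last match: gaaagcacCTCAGGGcccagcgg

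The Itgb1 matches start at bases 233 and 1040 of a 3′UTR of 1112 bases, 807 bases apart, and the second ends 66 bases before the end of the 3′UTR. Of 914 tested 3′UTRs of like length, within 0.25 on the log2 scale, 13.8% held at least 1 miR-124 match. In Itga8 both matches are followed by an A, the base that faces the first base of the miRNA, whereas neither Itgb1 match nor any of the 3 Itga9 matches is. Itga9 has a 3′UTR of 3671 bases, and 29.3% of 761 3′UTRs of like length held a miR-125b match. Itgb8, with the longest 3′UTR at 5095 bases, held 1 match each for let-7a, miR-21a and miR-292a, and Itgav held 1 each for miR-21a and miR-292a. The 3′UTR of Itga6, 756 bases long, held none of the 5. A match is a description of letters and does not show that a miRNA binds there.

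**Figure D1:**
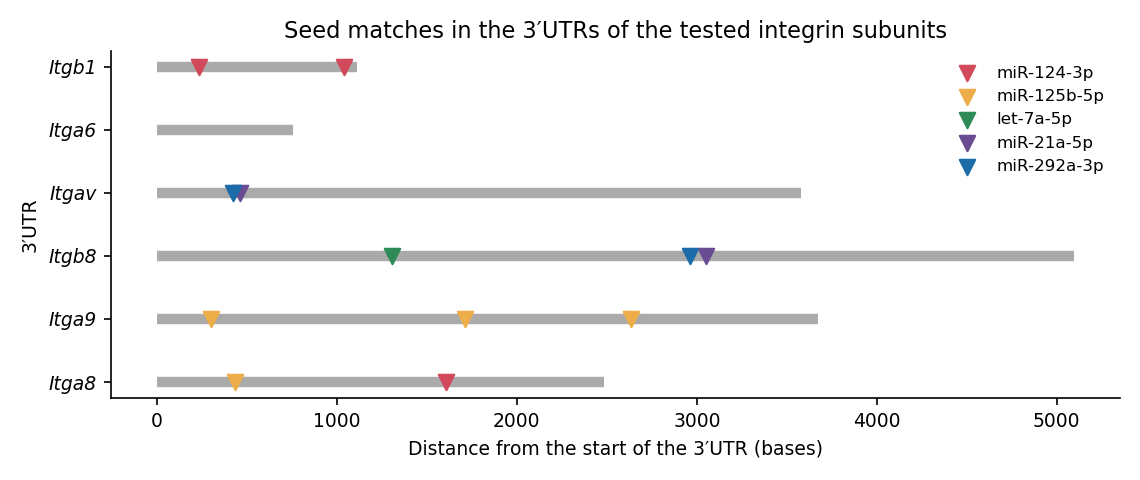
Seed matches along the 3′UTRs of the 6 tested integrin subunits. Grey bars show each 3′UTR to scale in bases from its start, and triangles mark the first base of a match, coloured by miRNA. Itgb1 holds 2 miR-124 matches in 1112 bases, Itga9 holds 3 miR-125b matches in 3671 bases and Itga6 holds none.

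The first comparison asked which integrin transcripts were bound to AGO2 in neurons, by setting miR292sp against sham. Itgb1, the common β subunit, was by far the most enriched member, Itga6 was enriched to a lesser degree, and Itgb8, Itgav, Itga8 and Itga9 stayed near the sham level. Relative enrichment in AGO2 binding was computed as a library's count over the sham mean, after scaling libraries to a Gapdh set, which is Gapdh with the 50 genes above and the 50 genes below it in raw ratio. On this scale, which takes the Gapdh set as background, the median over all 8203 3′UTRs was 2.39 in miR292sp, and 2 of the 6 members lay above it. The edgeR test called 59.4% of all 3′UTRs higher and 0.585% lower at an adjusted p below 0.05. Among the 6 members 2 were higher and 0 lower, with a median log2 fold change of 0.36 against 1.26 over all 3′UTRs.

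Itgb1 rested on a single 3′UTR (ENSMUST00000090006, chr8:131255989-131257100, plus strand). In the annotation the other 2 3′UTRs of the gene overlap it by 529 bases. They were counted over only 147 and 6 bases, and together had 14 counts. The relative enrichment of Itgb1 was 36.9 and 40.3 in the miR292sp libraries, 22.2 and 16.9 in miR125sp, 14.2 and 11.2 in miR124sp, and 1.07 and 0.932 in sham. All 6 AGO2 libraries were thus above both sham libraries, and on the Gapdh-set scale the 3 sponge groups did not overlap. With TMM scaling, which centres on the bulk of 3′UTRs, Itgb1 was at 391 and 310 CPM in miR125sp. There miR125sp overlapped both miR292sp at 378 and 431 CPM and miR124sp at 316 and 224 CPM. By rank, counted from the least enriched, Itgb1 was at 8195 of 8203 in miR292sp, 8200 in miR125sp and 8201 in miR124sp. It was 1 of 2230 3′UTRs with a mean relative enrichment above 4 in miR292sp, the limit for AGO2 targets, and the other 5 tested members were below it, with Itga6 just outside at 3.98. The log2 fold change over sham was 5.26 (SE 0.25, adjusted p = 3.90e-11), which is 4.01 above the median of all 3′UTRs, and its size ranked 10 among them.

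The 5 3′UTRs named next had the profiles closest to Itgb1 over the 6 AGO2 libraries, measured as the root mean square difference in log2 relative enrichment. They were Zbtb34 at 0.167, Slc25a1 at 0.192, Slc44a5 at 0.204, Scrt2 at 0.222 and Zswim5 at 0.229. Zbtb34 and Scrt2 encode zinc finger transcription regulators and Slc25a1 the mitochondrial citrate carrier. The 6 libraries share the scaling and the sham mean, so that likeness here is a description.

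Itga6, the laminin receptor subunit α6, had relative enrichments of 4.79 and 3.17 in miR292sp, 2.57 and 2.79 in miR125sp, 1.46 and 2.80 in miR124sp, and 0.775 and 1.23 in sham. Every AGO2 library was above both sham libraries, from 24 and 30 counts in sham. The log2 fold change of miR292sp over sham was 1.99 (SE 0.52, adjusted p = 0.00311). Without miR292sp replicate 5 it was 1.56 (adjusted p = 0.0691), and with TMM scaling, which centres on the bulk of 3′UTRs, 0.64 (adjusted p = 0.316).

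The αv and β8 subunits, which form the receptor for latent TGF-β, lay close to sham on the Gapdh-set scale. The relative enrichment of Itgb8 was 1.43 and 1.05 in miR292sp and 1.02 and 0.982 in sham. That of Itgav was 1.63 and 1.05 against 1.03 and 0.969. For both genes the miR292sp libraries were just above both sham libraries, by less than the median of all 3′UTRs. The log2 fold changes were 0.31 for Itgb8 (SE 0.25, adjusted p = 0.299) and 0.42 for Itgav (SE 0.31, adjusted p = 0.247), and relative to the median over all 3′UTRs they were -0.95 and -0.84.

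Itga8 had relative enrichments of 0.623 and 0.838 in miR292sp and 0.728 and 1.27 in sham. Its log2 fold change was -0.45 (SE 0.39, adjusted p = 0.339), or -1.71 relative to the median. Itga9 was the least counted of the tested members, at 24 and 26 counts in miR292sp and 25 and 33 in sham, and its log2 fold change was 0.29 (SE 0.52, adjusted p = 0.656). The groups overlapped for Itga8, and for Itga9, with relative enrichments of 1.20 and 1.23 against 0.749 and 1.25, both miR292sp libraries fell between the sham libraries on the Gapdh-set scale.

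The direction of Itgb8, Itgav and Itga9 depends on the scaling, and Itga8 was below 0 under each scaling tried. With TMM, under which the median of all 3′UTRs was -0.11 in place of 1.26, Itgb8 was lower at -1.07 (adjusted p = 0.00296), Itgav at -0.96 (adjusted p = 0.0174) and Itga8 at -1.79 (adjusted p = 0.00104), and Itga9 was at -1.06 (adjusted p = 0.103). Itgb1 stayed higher at 3.89 (adjusted p = 1.64e-08). The Gapdh set held 0.697% and 0.745% of the counts in miR292sp, 2.01% and 1.92% in sham and 1.21% to 1.45% in the sponge libraries. Astrocyte markers, which were 62611 and 63038 CPM in sham and 14962 and 15692 CPM in miR292sp, moved in the same direction as these 4 genes under TMM, and their part in the result was not tested.

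**Figure D2:**
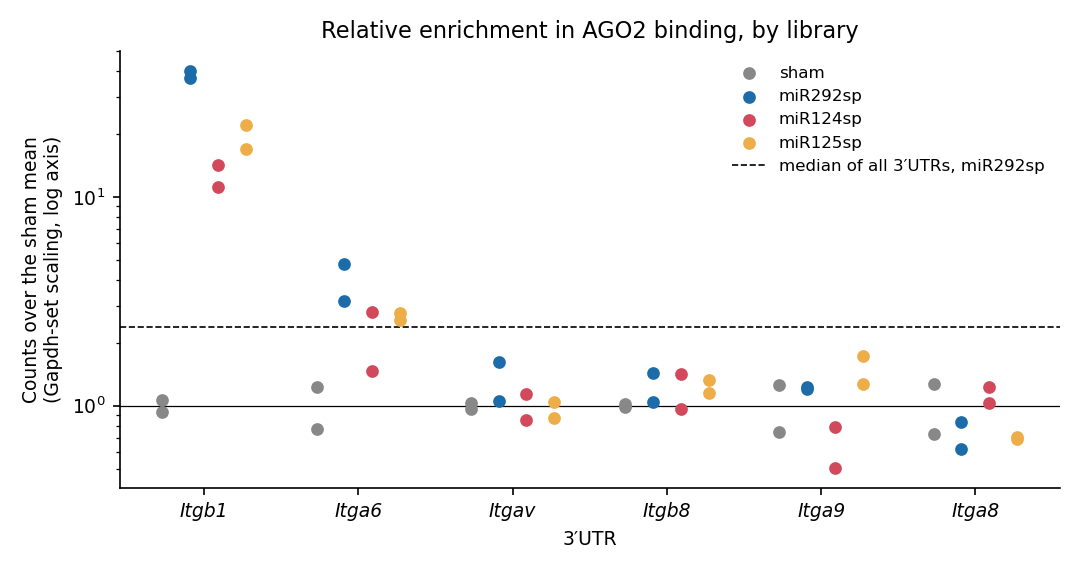
Relative enrichment in AGO2 binding of the 6 tested integrin 3′UTRs. Each point is 1 library, on a log axis, as counts on the Gapdh-set scale over the mean of the 2 sham libraries, and the dashed line is the miR292sp median of all 3′UTRs at 2.39. Itgb1 lies at 11.2 to 40.3 in the AGO2 libraries, and Itga6 at 1.46 to 4.79.

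Per length of 3′UTR, Itgb1 lay below Itgb8 and Itgav in sham and above all other tested members in miR292sp. Itga6 moved from below Itga8 to above it, while Itgb8 stayed above Itgav, Itga8 and Itga9 in each of these libraries. In sham, as TMM-scaled CPM per kb, Itgb8 was at 48.9 and 42.5, Itgav at 35.2 and 29.7, Itgb1 at 27.3 and 21.4, Itga8 at 20.4 and 32.1, Itga6 at 10.7 and 15.3, and Itga9 at 2.30 and 3.46. In sham Itgb8 was above the others in both libraries, and Itga8 overlapped Itgav and Itgb1, which were apart from each other. In miR292sp, Itgb1 was at 340 and 387, far above Itgb8 at 24.7 and 18.9, Itga6 at 23.8 and 16.5, Itgav at 20.0 and 13.5, Itga8 at 6.28 and 8.83 and Itga9 at 1.32 and 1.42. Itgb8, Itga6 and Itgav overlapped there.

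The other 4 members had too few 3′UTR counts to be tested. Itga1 had 141 counts over 8 libraries and 2 annotated 3′UTRs, of which the better counted one had 1 count in miR292sp replicate 6 and 20 in replicate 5. Itga7 had 40 counts, Itgb5 33 and Itga3 13. In 3 of these genes annotated 3′UTRs overlap each other, by 426 bases in Itga7, 314 bases in Itgb5 and up to 1134 bases in Itga3, where 2 of 3 had no count. Except for Itgb5, these genes were not rare in the mRNA-seq, where Itga7 had 6776 counts over 12 mice, Itga3 5502 and Itga1 2598. The methods used here do not state how reads shared between overlapping annotations were counted, so the low 3′UTR counts do not show that these transcripts were absent from AGO2.

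The next comparisons asked which transcripts gained or lost AGO2 binding when a sponge for a neuronal miRNA was present. In miR124sp against miR292sp, with TMM scaling, Itga8, which carries 1 miR-124 match, and Itgb8, which carries none, were higher. Itgb1, which carries 2 miR-124 matches, was 0.58 lower on the log2 scale without passing the threshold. Over all 3′UTRs 5.1% were higher and 3.45% lower at an adjusted p below 0.05, against 2 of 6 members higher and 0 lower. The median log2 fold change of the members was 0.37 against 0.04 over all 3′UTRs.

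Itga8 had TMM-scaled CPM of 55.9 and 60.1 in miR124sp and 15.6 and 21.9 in miR292sp, and the groups did not overlap. Its log2 fold change was 1.63 (SE 0.37, adjusted p = 0.0143). In sham it was 50.6 and 79.6 CPM, so that the miR124sp libraries lay within the sham range. Without miR124sp replicate 4 the log2 fold change was 1.57 (adjusted p = 0.0617), without miR292sp replicate 5 it was 1.40 (adjusted p = 0.184), and without miR292sp replicate 6 it was 1.89 (adjusted p = 0.0866).

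Itgb8 had 271 and 167 CPM in miR124sp and 125.7 and 96.3 CPM in miR292sp. The groups did not overlap, and sham had 249 and 216 CPM. Its log2 fold change was 0.98 (SE 0.25, adjusted p = 0.0257). The adjusted p was 0.200 without miR124sp replicate 3, 0.114 without miR292sp replicate 5 and 0.233 without miR292sp replicate 6, and 0.0655 with the filterByExpr filter.

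For Itgb1 the CPM were 316 and 224 in miR124sp and 378 and 431 in miR292sp, again without overlap. The log2 fold change was -0.58 (SE 0.22, 95% interval -1.05 to -0.12, unadjusted p = 0.0171, adjusted p = 0.105). On the Gapdh-set scale, where the median of all 3′UTRs was -0.97, Itgb1 was at -1.60 (adjusted p = 1.28e-05), and relative to the medians the 2 scalings gave -0.62 and -0.63. It passed the threshold with DESeq2 (-0.64, adjusted p = 0.0497) and with no filter on low counts (-0.77, adjusted p = 0.0246). On the Gapdh-set scale Itga8 was at 0.63 (adjusted p = 0.189) and Itgb8 at -0.05 (adjusted p = 0.888), and neither was called.

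Itgav had 109 and 73.4 CPM in miR124sp and 71.4 and 48.5 in miR292sp, without overlap, and its log2 fold change was 0.60 (SE 0.30, adjusted p = 0.209). Itga6 was at 0.09 (SE 0.48, adjusted p = 0.928) and Itga9 at 0.13 (SE 0.52, adjusted p = 0.902). With 24 and 12 counts of Itga9 in miR124sp, a difference of up to 1.22 on the log2 scale lies within its 95% interval. Of 8 tested 3′UTRs of 7 astrocyte markers 4 were higher in miR124sp and 0 lower, with a median log2 fold change of 1.31, and their summed level was 43569 and 44035 CPM against 14962 and 15692 CPM in miR292sp. None of the 8 listed astrocyte markers was at 0. This move has the direction of Itga8 and Itgb8, and its part in their result was not tested.

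In miR125sp against miR292sp no member passed the threshold by edgeR, where 1.18% of all 3′UTRs were higher and 0.232% lower. At an unadjusted p below 0.05 there were 2 of 6 tested members, beside 823 higher and 583 lower of all 8203 3′UTRs. DESeq2 called 0 members. Itga9, with its 3 miR-125b matches, had 40 and 33 counts in miR125sp and 24 and 26 in miR292sp, or 12.1 and 9.27 against 4.86 and 5.23 CPM. Its groups did not overlap, and its log2 fold change was 1.08 (SE 0.50, unadjusted p = 0.0449, adjusted p = 0.280). Itgb8 had 175 and 210 CPM in miR125sp, above both miR292sp libraries, and a log2 fold change of 0.79 (SE 0.25, unadjusted p = 0.00569, adjusted p = 0.123). It was called only when the fit was limited to the 4 libraries compared (adjusted p = 0.0359).

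Itga8, which carries a miR-125b match and a miR-124 match, was at 0.72 (SE 0.37, adjusted p = 0.332) in miR125sp. Itgb1, which has no miR-125b match, was at 391 and 310 CPM and overlapped miR292sp, with a log2 fold change of -0.21 (SE 0.22, adjusted p = 0.664). On the Gapdh-set scale, where the median of all 3′UTRs was -0.75, Itgb1 was at -0.98 (adjusted p = 0.00157). Itgav was at 0.31 and Itga6 at 0.22, with adjusted p of 0.625 and 0.850. The members' median was 0.51 against 0.03 over all 3′UTRs, and 3 of 8 tested astrocyte 3′UTRs were higher and 0 lower, with a median of 1.11.

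The 2 sponges were also set against each other, since both comparisons above share the miR292sp libraries. By edgeR 0% of all 3′UTRs were higher in miR124sp than in miR125sp and 0.0122% lower, and no member was called, while 215 3′UTRs in each direction had an unadjusted p below 0.05. Itga8 had the lowest p of the members, with a log2 difference of 0.91 (SE 0.36, unadjusted p = 0.0223, adjusted p = 0.868) and TMM-scaled CPM of 55.9 and 60.1 against 30.6 and 31.2. Itgb1 was at -0.38 (95% interval -0.84 to 0.09, adjusted p = 0.921), Itgb8 at 0.19, Itgav at 0.30, Itga6 at -0.13 and Itga9 at -0.95. DESeq2 called 0 members.

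**Figure D3:**
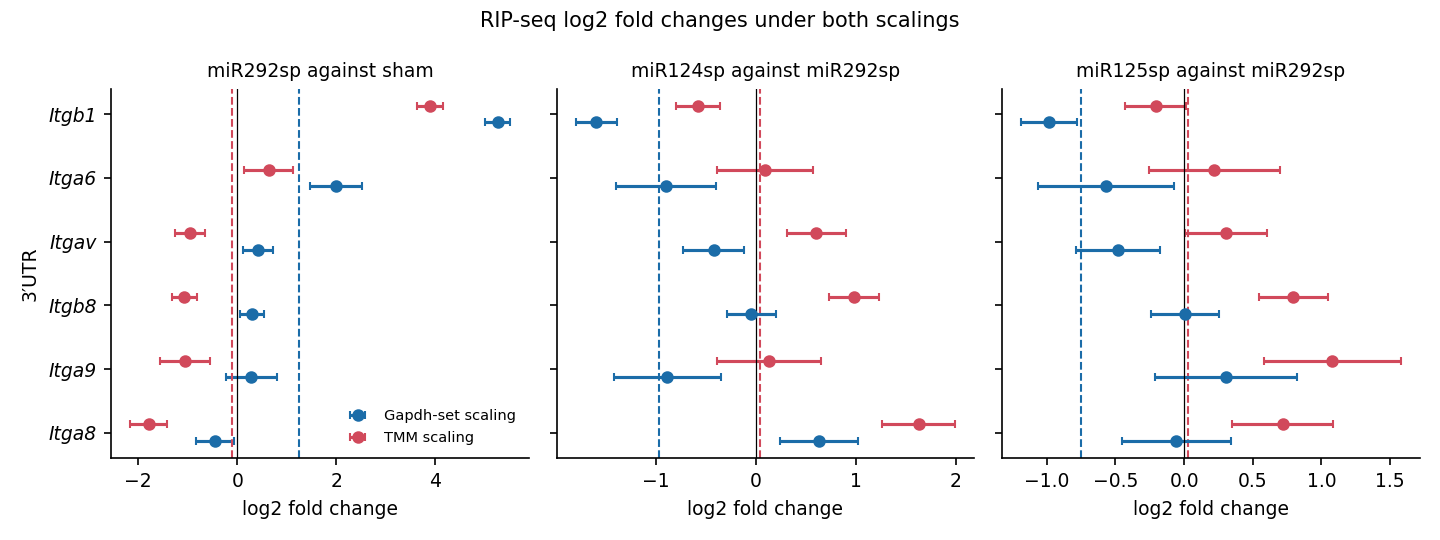
RIP-seq log2 fold changes of the 6 tested integrin 3′UTRs in 3 comparisons. Points are edgeR estimates with SE bars, blue on the Gapdh-set scale and red with TMM, and dashed lines in the same colours give the median of all 3′UTRs on each scale. Itgb1 against sham is at 5.26 and 3.89, while Itgb8 in miR124sp is at -0.05 and 0.98.

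Other genes of the integrin pathway were counted in the AGO2 fraction in the same way. Of 48 listed adaptors and signalling proteins 27 were tested against sham, and 21 were higher and 0 lower, with a median log2 fold change of 1.80 against 1.26 over all 3′UTRs, of which 59.4% were higher. The 3 with the largest changes were Rsu1, a partner of the PINCH proteins, at 4.65 (SE 0.48, adjusted p = 2.26e-07), Rap1b, a small GTPase that activates integrins, at 3.74 (SE 0.38, adjusted p = 1.75e-07), and Parvb, which links integrin-linked kinase to actin, at 3.53 (SE 0.36, adjusted p = 2.07e-07). Of 35 matrix ligands 12 were tested, and 5 were higher and 0 lower, with a median of 0.91, so that their share of higher calls and their median lay below those of all 3′UTRs. Npnt, which encodes the α8β1 ligand nephronectin, was at 2.91, the laminin chain Lamc1 at 2.88 and the collagen chain Col4a2 at 2.29, with adjusted p of 1.09e-05, 2.29e-06 and 8.54e-07. Among the 16 other subunit genes only Itga11 had enough counts, and it was higher at 1.96 (SE 0.50, adjusted p = 0.00237).

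In miR124sp against miR292sp, where edgeR called 5.1% of all 3′UTRs higher and 3.45% lower, 1 of 27 adaptors was higher and 0 lower. This was the small GTPase Rhoa at 0.89 (SE 0.20, adjusted p = 0.0142). Unadjusted edgeR p were below 0.05 for 9 adaptors, beside 1186 higher and 965 lower of all 8203 3′UTRs. DESeq2 called 5 adaptors, 2 of them higher. Of the 12 ligands 2 were higher and 0 lower, Edil3, which binds αv integrins, at 1.54 (SE 0.18, adjusted p = 0.000127) and the tenascin Tnr at 0.86 (SE 0.23, adjusted p = 0.0332). Edil3 was also the only ligand called in miR125sp, at 0.83 (SE 0.18, adjusted p = 0.0225), where 0 of 27 adaptors passed by edgeR, 1 had an unadjusted p below 0.05 and DESeq2 called 1. Itga11 was at -0.42 (adjusted p = 0.607) in miR124sp and 0.34 (adjusted p = 0.741) in miR125sp. Between the sponges no adaptor or ligand passed by edgeR, where 2 adaptors and 1 ligand had an unadjusted p below 0.05, and DESeq2 called 0 of both.

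The mRNA-seq gave the level of the subunits in whole hippocampus. Per kb of transcript and in the 6 GFP mice, Itgb1 was highest, with a median of 24.9 CPM per kb (21.5 to 27.4), followed by Itgav at 19.4 (17.4 to 22.0) and Itgb8 at 18.3 (15.5 to 19.4). The ranges of Itgb1 and Itgav overlapped, as did those of Itgav and Itgb8. Itga7 came next at 8.28 (7.00 to 11.0), then Itga3 at 5.01 (4.13 to 5.97) and Itga8 at 4.69 (4.34 to 4.99), whose ranges overlapped, and Itga1 at 2.08 (1.71 to 2.67). Itga7 was apart from Itgb8 above it and Itga3 below it, and Itga1 was apart from Itga8.

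Itga9 at 0.257 CPM per kb and Itga6 at 0.105 were the lowest of those counted, and Itgb5 had 1 count in all 12 mice. These 3 are the members with 2 RefSeq transcripts each, of which 1 was at 0 in Itga6 and Itga9, and their 12-mouse totals of 380, 125 and 1 counts stand against 2598 to 29423 counts for the 7 members with 1 transcript. Their levels are uncertain, since the treatment of reads shared between transcripts is not stated. The level of Itgb8 per kb rests on a RefSeq transcript of 3096 bases, shorter than its Ensembl 3′UTR of 5095 bases.

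**Figure D4:**
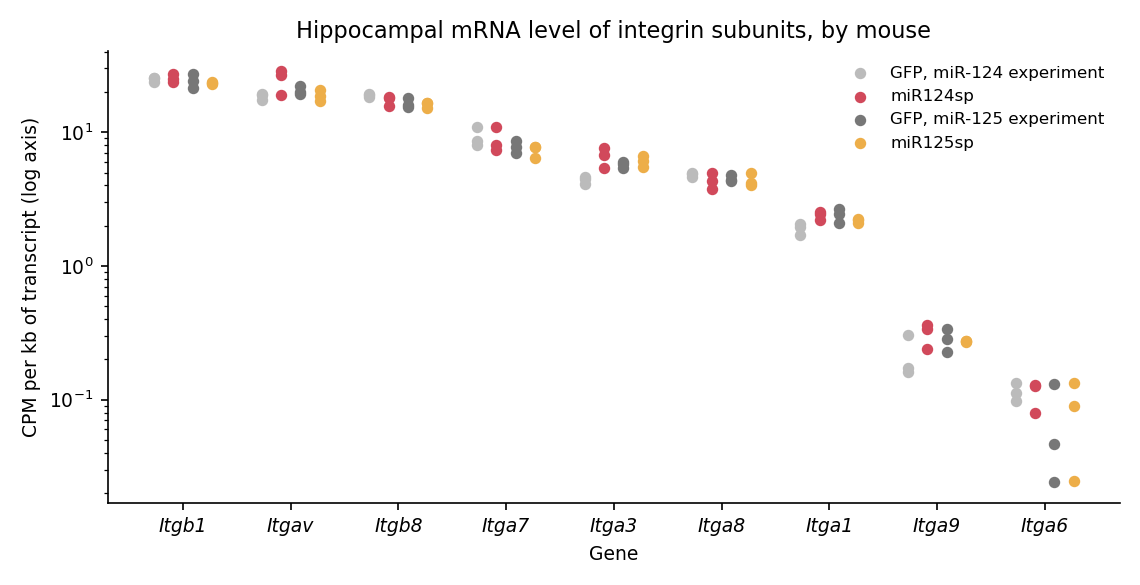
Hippocampal mRNA level of 9 integrin subunits in 12 mice. Each point is 1 mouse, as TMM-scaled CPM per kb of RefSeq transcript on a log axis, coloured by group, and Itgb5 with 1 count in all is left out. The 3 miR124sp mice lie at 5.37 to 7.57 for Itga3, above the 3 GFP mice of their experiment at 4.13 to 4.65.

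The mRNA comparisons asked whether a sponge changed transcript levels. In miR124sp mice Itga3 and Itgav rose, and Itgb1, the member most bound to AGO2, did not differ beyond its error. Of 12971 genes tested by edgeR 12.6% were higher and 10.7% lower, against 2 of 9 tested members higher and 0 lower. The members' median log2 fold change was 0.04 against -0.01 over all genes.

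Itga3, the laminin receptor subunit α3, was at 36.7, 32.8 and 26.1 CPM in the miR124sp mice and at 21.9, 20.0 and 22.6 CPM in the GFP mice. All 3 miR124sp mice were above all 3 GFP mice. The log2 fold change was 0.59 (SE 0.12, adjusted p = 0.00970), and it remained past the threshold in all 12 alternatives tried, with log2 fold changes of 0.47 to 0.79 and adjusted p up to 0.0484. The miR-125 experiment gives a second set of GFP mice, in which Itga3 was at 26.1, 28.1 and 29.0 CPM, so that the lowest miR124sp mouse lay within the range of all GFP mice.

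Itgav was at 188, 202 and 135 CPM in the miR124sp mice and at 123, 137 and 133 CPM in their GFP mice. Replicates 14 and 2 were above the GFP mice and replicate 9 was among them. The log2 fold change was 0.44 (SE 0.13, adjusted p = 0.0375). It lost significance when any of the GFP mice or miR124sp replicates 14 or 2 was left out, at adjusted p of 0.0788 to 0.150, and without replicate 9 it was 0.59 (adjusted p = 0.000485). With an unexplained mark in the library headers, found for 8 of the 12 mice, as a covariate it was 0.54 (adjusted p = 0.0781). This mark is absent from miR124sp replicates 2 and 9 and present in the other 4 libraries, so within the experiment it occurs in both states only among miR124sp mice.

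Itga1, the collagen receptor subunit α1, was at 15.1, 14.5 and 13.1 CPM in miR124sp mice and 10.3, 11.8 and 12.4 CPM in GFP mice. These groups did not overlap. The GFP mice of the miR-125 experiment, at 14.7, 15.9 and 12.5 CPM, spanned all miR124sp mice. The log2 fold change against the GFP mice of the same experiment was 0.34 (SE 0.11, adjusted p = 0.0551). It passed without miR124sp replicate 9 (adjusted p = 0.0305) and in 1 fit over 12 mice (adjusted p = 0.0353). Itgb1 was at 98.9, 115 and 104 CPM against 107, 107 and 99.6 CPM, and its log2 fold change was 0.04 (SE 0.07, 95% interval -0.13 to 0.21, adjusted p = 0.733).

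The other members tested were not called, also in every alternative tried. Itgb8 was at -0.11 (SE 0.08, adjusted p = 0.347), Itga8 at -0.13 (SE 0.11, adjusted p = 0.401), Itga7 at -0.04 (SE 0.16, adjusted p = 0.867) and Itga6 at -0.03 (SE 0.34, adjusted p = 0.956). Itga9 was at 0.52 (SE 0.30, adjusted p = 0.237) from 20 to 61 counts per mouse. Itga8 and Itgb8, which were higher in the miR124sp RIP, thus had mRNA log2 fold changes below 0 that did not pass the test.

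Markers of other cells moved in the same mice. The 7 oligodendrocyte markers with counts summed to 861 to 1165 CPM in miR124sp mice and 612 to 660 CPM in their GFP mice, and 5 of these 7 were higher and 0 lower. Of 9 tested microglia markers 6 were lower and 0 higher, from 809 to 905 CPM in GFP mice to 708 to 736 CPM, and of 7 tested astrocyte markers 4 were lower and 0 higher, from 3223 to 3756 CPM to 2531 to 2772 CPM. Of 6 tested endothelial markers 0 were called by edgeR and 1 by DESeq2. At an unadjusted p below 0.05 there were 2, beside 2546 higher and 2371 lower of all 12971 genes. The summed levels of endothelial markers were 303 to 334 CPM against 274 to 305 CPM. The part of these shifts in the changes of Itga3 and Itgav was not tested.

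In miR125sp mice no member was called by edgeR, where 0.0554% of 12638 genes were higher and 0.15% lower. None of the 8 tested members had an unadjusted p below 0.05, and DESeq2 called 0. Itgav was at 147, 132 and 122 CPM against 141, 137 and 155 CPM in its GFP mice, with a log2 fold change of -0.13 (SE 0.07, adjusted p = 0.456). Itga3 was at 26.5, 32.0 and 29.3 CPM against 26.1, 28.1 and 29.0 CPM, with a log2 fold change of 0.06 (SE 0.09, adjusted p = 0.836). Itgb1 was at -0.09 (95% interval -0.24 to 0.07), and the other 5 tested members ranged from -0.12 for Itga1 to -0.03 for Itga8. Itga6 had too few counts to be tested, and the members' median was -0.08 against -0.01 over all genes.

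The effects of the 2 sponges were compared as an interaction over the 12 mice, in which 7.42% of 13268 genes were called with a more positive and 7.06% with a more negative effect of miR124sp. Itgav, with a difference in log2 fold change of 0.55 (SE 0.16, adjusted p = 0.0374), and Itga3, with 0.52 (SE 0.16, adjusted p = 0.0393), were 2 of 9 members called, both more positive in miR124sp. Each call was lost when single mice were left out. Itga3 remained past the threshold only without GFP replicate 8 of the miR-124 experiment, miR124sp replicate 9 or miR125sp replicate 6, and the other 9 omissions gave adjusted p up to 0.0920. Itgav lost the call without GFP replicate 15 of the miR-124 experiment, miR124sp replicates 14 or 2, GFP replicates 14 or 4 of the miR-125 experiment, or miR125sp replicates 6 or 9, at adjusted p up to 0.0974. With the header mark as a covariate Itgav was at 0.74 (adjusted p = 0.0643). Itga1 was at 0.45 (SE 0.16, adjusted p = 0.0706), Itga9 at 0.57 (SE 0.38, adjusted p = 0.345) and Itgb1 at 0.11 (SE 0.11, adjusted p = 0.562). Of 7 tested oligodendrocyte markers 5 also had a more positive effect of miR124sp and 0 a more negative one, and their part in these differences was not tested.

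**Figure D5:**
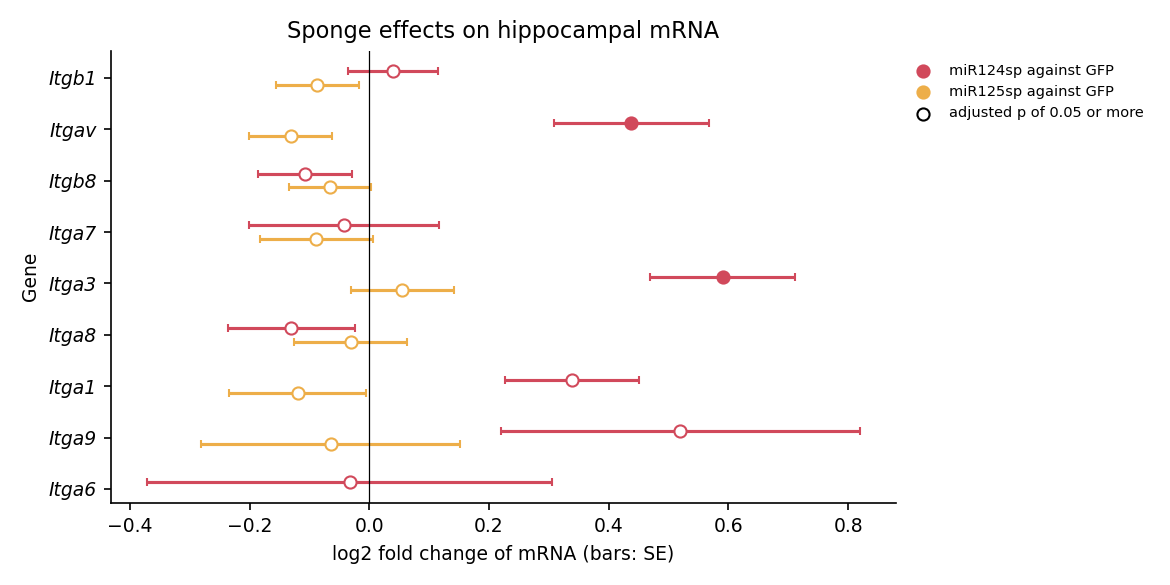
Effects of the sponges on hippocampal mRNA of the integrin subunits. Points are edgeR log2 fold changes against the GFP mice of the same experiment with SE bars, and filled points have an adjusted p below 0.05. Itga3 at 0.59 and Itgav at 0.44 in miR124sp are filled, and no miR125sp point is.

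Among the other integrin subunits 8 of 16 were tested in miR124sp mice, and 0 were called by edgeR and by DESeq2. At an unadjusted p below 0.05 there were 3, beside 2546 higher and 2371 lower of all 12971 genes. Itgb3, a further partner of αv, came closest at 0.52 (SE 0.17, adjusted p = 0.0506). Itgax was at 0.66 (adjusted p = 0.131), Itga5 at 0.39 (adjusted p = 0.139), Itga2b at -0.58 (adjusted p = 0.0859), Itgb7 at -0.41, Itgb2 at -0.12, Itga4 at -0.11 and Itga11 at -0.07. In miR125sp mice 0 of 8 were called by either tool. At an unadjusted p below 0.05 there was 1, beside 808 higher and 851 lower of all 12638 genes. This was Itgax, a leukocyte subunit, at -1.74 (SE 0.37, adjusted p = 0.104). Itgax (2.39, adjusted p = 0.00431) and Itgb3 (0.72, adjusted p = 0.0487) differed between the sponges.

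Of 31 tested matrix ligands 9 were higher and 0 lower in miR124sp mice, with a median log2 fold change of 0.16, beside 12.6% higher and 10.7% lower over all genes. The largest were Ccn2, a matricellular protein, at 1.15 (SE 0.24, adjusted p = 0.0108), Reln, the secreted guidance protein reelin, at 0.75 (SE 0.11, adjusted p = 0.00394), and the thrombospondin Thbs2 at 0.64 (SE 0.16, adjusted p = 0.0218). Of 38 tested adaptors 4 were higher and 3 lower, with a median of -0.02, shares no larger than those over all genes. The kindlin Fermt1 was at 0.90 (SE 0.23, adjusted p = 0.0224), Itgb1bp1, which competes with talin for the β1 tail, at -0.39 (SE 0.08, adjusted p = 0.0104), and Cd47, a partner of αv integrins, at 0.38 (SE 0.08, adjusted p = 0.0127).

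In miR125sp mice 1 of 31 ligands was lower and 0 higher by edgeR, namely the basement membrane proteoglycan Hspg2 at -0.56 (SE 0.08, adjusted p = 0.0329). The ligands' median log2 fold change was -0.19 against -0.01 over all genes, and DESeq2 called 2, 0 of them higher. By edgeR 12 ligands had an unadjusted p below 0.05, as had 808 higher and 851 lower of all 12638 genes. Of 37 adaptors 0 were called by edgeR and DESeq2, with 3 at an unadjusted p below 0.05. Hspg2 (1.01, adjusted p = 0.00108), Reln (0.98, adjusted p = 0.00420) and Thbs2 (0.74, adjusted p = 0.0381) led the 6 of 32 ligands whose effects differed between the sponges, all more positive in miR124sp, beside 7.42% more positive and 7.06% more negative over all genes. Of 39 adaptors 3 were more positive and 2 more negative, shares near those over all genes, among them the talin Tln1 at 0.46 (adjusted p = 0.00344), Rap1b at -0.39 (adjusted p = 0.0127) and Itgb1bp1 at -0.37 (adjusted p = 0.0456).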

How the data were processed

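The authors mapped 50 bp single-end reads from poly-A-enriched cDNA libraries to the mouse genome and deposited raw counts, per annotated 3′UTR for 8 RIP-seq libraries and per RefSeq transcript for 12 mRNA-seq libraries. The methods name mm9, and the submitters' processing notes name mm10, STAR and edgeR. No source used here names the counting program. GENCODE M1 on NCBIM37 (mm9) gave names, coordinates and sequences. It named the gene for 98.0% of the 38158 3′UTRs and matched the counted length for 82.7% of them. RefSeq transcripts, 98.7% of them with a symbol, were summed per symbol, and those without one held 0.849% of the counts. All 12 sites found were read again from the genome at the same coordinates. The letters searched for miR-124-3p and miR-292a-3p were set from their known seeds.

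RIP libraries were fitted together with edgeR 4.0.16 (quasi-likelihood, R 4.3.3) on 3′UTRs with at least 10 counts in every library. miR292sp against sham was scaled to the Gapdh set, Gapdh and 50 genes on either side by raw ratio, and comparisons of sponges by TMM. mRNA experiments were fitted on their own 6 mice after filterByExpr with TMM, and their difference over 12 mice. Calls are at a Benjamini-Hochberg adjusted p below 0.05 over all features tested. Intervals are 95%, SE come from the fits, and p-values rest on 2 pooled libraries or 3 mice a group. With TMM, the fits of miR124sp against miR292sp in RIP-seq and of miR124sp against GFP in mRNA were tested on simulated data. The fit scaled to the Gapdh set and the interaction were not. DESeq2 1.42.0, Python 3.11.15, numpy 2.4.6, pandas 2.3.3 and matplotlib 3.10.9 were also used.

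The members and lists were chosen with earlier results of these data known. All 10 members are named, other subunits where they were tested, and of the ligands and adaptors the 3 with the largest absolute log2 fold change among those called in a comparison.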

Additional observations from a re-analysis of the deposited data

Results flagged for a closer look

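By the interaction over 12 mice, the effects of the 2 sponges on mRNA differed for 2 members. For Itgav the log2 fold change was 0.55 more positive in miR124sp than in miR125sp (SE 0.16, edgeR adjusted p = 0.0374), with 2 of 3 miR124sp mice above all 3 of their GFP mice and 2 of 3 miR125sp mice below all 3 of theirs. For Itga3 it was 0.52 more positive (SE 0.16, edgeR adjusted p = 0.0393), with 3 of 3 miR124sp mice above all of their GFP mice and 2 of 3 miR125sp mice above all of theirs.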

How the results depend on the processing

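For 50 member log2 fold changes, 566 values under alternatives were computed. Of these 461 kept direction and side of the threshold, 34 were no longer past it, 11 were newly past it and 60 had the other sign, 0 of them called both ways. The cause was not tested. Alternatives for miR124sp against miR125sp in RIP-seq and for the interaction were chosen after seeing the data. No paired analysis was possible because the groups compared share no replicate numbers, except in the interaction, where any pair of groups shares at most 1.

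For miR292sp against sham, TMM gave 1 member higher, Itgb1, and 3 lower, Itgb8 at -1.07, Itgav at -0.96 and Itga8 at -1.79. Total counts also gave 1 higher and the same 3 lower, at -1.15, -1.04 and -1.88 in that order. Itga9 had the other sign, at -1.06 and -1.15, without being called (edgeR adjusted p = 0.103 and 0.0834). On the Gapdh-set scale, where the median of all 3′UTRs was -0.97, miR124sp against miR292sp gave 0 members higher and 1 lower, Itgb1. Itgb8 was at -0.047, Itgav at -0.42, Itga9 at -0.89 and Itga6 at -0.90, none of them called. On the same scale miR125sp against miR292sp, with a median of -0.75 over all 3′UTRs, also gave 1 lower, Itgb1. Itga8 was at -0.057, Itgav at -0.48 and Itga6 at -0.57 there, and Itgb8 was at -0.053 between the sponges. In miR124sp against miR292sp, filterByExpr gave 1 member higher, Itga8, and DESeq2 gave 1 lower, Itgb1. No filter also gave 1 lower, Itgb1, with Itga9 at -0.060 and Itga6 at -0.11, neither of them called. A fit on 4 libraries gave 1 member higher in miR125sp.

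In the mRNA-seq the header mark as a covariate gave 1 member higher in miR124sp, with Itgb1 at -0.061, and 1 in the interaction, with Itga7 at -0.11, and in miR125sp it gave Itga1 at 0.064 and Itga8 at 0.014. Total counts gave Itgb1 at -0.0013 in miR124sp and Itga6 at -0.00034 in the interaction, where no filter gave -0.0030.

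With 1 library or mouse left out, the members higher numbered 1 to 2 against sham, 0 to 1 in the miR124sp RIP-seq, 1 to 3 in miR124sp mRNA and 0 to 3 in the interaction. A library left alone in its group was assumed to vary like the other groups. Log2 fold changes against sham ran from -0.19 to 0.76 for Itgb8 and -0.095 to 0.90 for Itgav. In the miR124sp RIP-seq they ran from -0.34 to 0.46 for Itga9 and -0.36 to 0.43 for Itga6, and in the miR125sp RIP-seq from -0.026 to 0.50 for Itga6. Between the sponges they ran from -0.21 to 0.49 for Itgb8, -0.016 to 0.55 for Itgav and -0.57 to 0.21 for Itga6. In miR124sp mRNA the ranges were -0.15 to 0.17 for Itga6, -0.23 to 0.10 for Itga7 and -0.019 to 0.081 for Itgb1. In miR125sp mRNA they were -0.0040 to 0.13 for Itga3, -0.13 to 0.024 for Itga8, -0.15 to 0.035 for Itga9, -0.16 to 0.011 for Itgb1 and -0.10 to 0.016 for Itgb8. In the interaction they were -1.27 to 0.49 for Itga6, -0.14 to 0.20 for Itga7, -0.21 to 0.0079 for Itga8 and -0.12 to 0.023 for Itgb8.

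Counts were too low to test Itgb5, Itga1, Itga3 and Itga7 in the RIP-seq, Itgb5 in the mRNA-seq and Itga6 in miR125sp mRNA, and the part of depth and of shared reads in this was not tested.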
